A study of Rattus norvegicus with 12 samples.

Results

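Prox1, Dsp, Plk5, Trpc6 and Glis3 are 5 genes that mark hippocampal neurons, most of all the granule neurons of the dentate gyrus, and they are followed here through rat brain tissue after cerebral ischemia-reperfusion and electroacupuncture. They were picked by name as 5 of the 18800 gene symbols in the deposited count table, because their levels in these same samples differed between groups. Their levels are therefore given as a description without a test. All 5 passed the filter on low counts, which left 15487 genes.

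The tissue came from Sprague-Dawley rats in 3 groups of 4 labelled samples. Every rat, controls included, was restrained for an equal time. The control group (columns named Sham) had restraint alone, the model group (MCAO) had middle cerebral artery occlusion followed by reperfusion plus restraint, and the electroacupuncture group (EA) had that operation plus restraint plus current at 4 acupoints, Tianfu, Chize, Kongzui and Taiyuan. The labels give no operation for the controls, no age, no occlusion time, no brain region and no side. The table has 11 columns, with 3 named Sham, 4 named MCAO and 4 named EA. For 3 pairs within a group (MCAO1 with MCAO2, MCAO3 with MCAO4, EA2 with EA3) the counts differed by only 1.34 to 1.4 times the sampling variance. Every other pair within a group differed by 4.74 times or more. Pairs across groups differed by 3.64 to 29.4 times, the closest being EA4 with Sham2. Each of the 3 near-identical pairs was summed and counted as 1 sample, which leaves 3 control samples (A to C), 2 model samples (A and B) and 3 electroacupuncture samples (A to C), with total counts between 9335913 and 23835724. Separate animals are not named for these samples, so p-values measure only the spread between them, which may be technical. Wherever the values of a group are listed, they stand in the order A, B, C. Levels are in CPM, read counts scaled to library size, here with TMM factors that even out differences in library composition. They are not divided by gene length, so they are compared between samples and not between genes.

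The hippocampus is built from the dentate gyrus, whose granule neurons are born throughout life, and from the CA fields of pyramidal neurons. Granule neurons send mossy fibres to CA3, and CA3 projects to CA1. Prox1 encodes a homeodomain transcription factor that granule neurons need to form and to keep their identity. It is also made by some interneurons and by cells of the oligodendrocyte lineage. Dsp encodes desmoplakin, the protein that ties desmosomes to intermediate filaments. Plk5 encodes a brain-enriched relative of the polo-like kinases. Trpc6 encodes a calcium-permeable channel opened by diacylglycerol, and Glis3 a zinc finger transcription factor best known from pancreatic beta cells and the thyroid. In bulk tissue, fewer cells of a type and less RNA per cell cannot be told apart.

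Since all 5 genes were lowest on average in the model samples, the RefSeq sequence upstream of their starts (assembly GRCr8) was searched on both strands for 4 common promoter motifs. An E-box, bound by neuronal helix-loop-helix factors, was read as CANNTG. The GC box of Sp1-like factors was read as GGGCGG. The CCAAT box was read as its own letters, and the TATA box as TATAAA. Sequence was at hand for Dsp, Trpc6 and Glis3, and windows ran over the 250 bases before the start, for Glis3 before the start that lies farthest upstream. Glis3 held 2 GC boxes, 36 and 20 bases before its start, and none of the other motifs. Dsp held 4 GC boxes and 1 E-box, and Trpc6 held no match. Capitals mark the GC boxes, read as CCGCCC on this strand, in the Glis3 window and the E-box in the Dsp stretch.
Glis3, chr1:235809417-235809666, minus strand: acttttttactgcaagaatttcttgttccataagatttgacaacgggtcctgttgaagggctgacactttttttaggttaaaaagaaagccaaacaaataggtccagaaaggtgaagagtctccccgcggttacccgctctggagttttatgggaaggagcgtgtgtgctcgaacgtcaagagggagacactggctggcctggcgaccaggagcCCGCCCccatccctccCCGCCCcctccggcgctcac
Dsp, chr17:26877189-26877218, minus strand: gaagaagcgggcCAGGTGtggcctgcgcgc
Across 33469 such windows of rat genes, 65.5% held an E-box, 30.5% a GC box, 34.0% a CCAAT box and 12.9% a TATA box. No motif was found in all 3 windows, and the motif searches overlap in no position of these windows.

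Prox1 showed the widest range of the 5. It stood at 96.0, 70.8 and 62.7 CPM in the controls, at 6.38 and 3.83 CPM in the model samples, and at 9.80, 61.3 and 61.1 CPM in the electroacupuncture samples. Both model samples lay far below every control, and the electroacupuncture group split, with A close to the model samples and B and C just under the lowest control. The group means were 76.5 ± 17.4 CPM (SD, n = 3), 5.10 ± 1.80 CPM (SD, n = 2) and 44.1 ± 29.7 CPM (SD, n = 3). The control mean was 15.0 times the model mean (log2 fold change -3.90, SE 0.80), and the electroacupuncture mean was 8.63 times the model mean (3.11, SE 0.77). Against control, electroacupuncture differed by -0.79 (SE 0.60), or by -0.32 without electroacupuncture A. The counting intervals of electroacupuncture B (58.2 to 64.6 CPM, 95% exact Poisson) and C (56.2 to 66.2 CPM) overlapped that of control C (58.1 to 67.5 CPM), so that order was not resolved. Intervals here cover counting error only, since reads copied by PCR are not independent molecules, and no label says that molecular identifiers were counted.

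Plk5 followed the same general order with smaller differences. It measured 69.7, 119 and 55.3 CPM in the controls, 11.5 and 33.7 CPM in the model samples, and 30.4, 44.0 and 63.6 CPM in the electroacupuncture samples. Both model samples were below all controls, but model B lay above electroacupuncture A, so the operated groups overlapped. Mean levels were 81.2 ± 33.2 CPM (SD, n = 3) in controls, 22.6 ± 15.7 CPM (SD, n = 2) in model samples and 46.0 ± 16.7 CPM (SD, n = 3) with electroacupuncture. The log2 fold change was -1.84 (SE 0.56) for model against control, 1.02 (SE 0.54) for electroacupuncture against model and -0.82 (SE 0.47) for electroacupuncture against control. Without model A the first of these was -1.27 and the second 0.45, and without model B they were -2.82 and 2.00. Among the controls, B stood well above the others.

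Trpc6 departed from this order. Its levels were 35.3, 27.1 and 25.4 CPM in the controls, 8.31 and 18.9 CPM in the model samples, and 3.38, 23.3 and 18.6 CPM in the electroacupuncture samples. The lowest sample was electroacupuncture A and not a model sample, and model B (17.0 to 21.0 CPM, 95% exact Poisson) could not be separated from electroacupuncture C (15.9 to 21.5 CPM). Group means were 29.2 ± 5.30 CPM (SD, n = 3), 13.6 ± 7.52 CPM (SD, n = 2) and 15.1 ± 10.4 CPM (SD, n = 3) in control, model and electroacupuncture. The model mean was lower than the control mean by a log2 fold change of -1.10 (SE 0.71), and electroacupuncture against model gave 0.15 (SE 0.69), less than the spread between samples. That small difference changed sign with the sample left out, from -0.34 without electroacupuncture B and -0.32 without model A to 0.87 without model B. The difference from control was -0.63 without model A and -1.82 without model B. Electroacupuncture against control gave -0.95 (SE 0.62), or -0.48 without electroacupuncture A.

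Dsp was measured at low counts. It stood at 4.77, 5.80 and 4.12 CPM in the controls, at 1.77 and 0.821 CPM in the model samples, and at 3.04, 4.51 and 2.32 CPM in the electroacupuncture samples. Model samples were the lowest, as for Prox1, but here electroacupuncture A was not set apart from the rest of its group. Electroacupuncture C was lower, with overlapping counting intervals (2.11 to 4.22 CPM for A and 1.45 to 3.51 CPM for C). Means were 4.90 ± 0.845 CPM (SD, n = 3), 1.29 ± 0.670 CPM (SD, n = 2) and 3.29 ± 1.11 CPM (SD, n = 3). The log2 fold changes were -1.91 (SE 0.48) for model against control, 1.35 (SE 0.47) for electroacupuncture against model and -0.56 (SE 0.39) for electroacupuncture against control. Without model A the first of them was -2.56 and the second 2.00, and without model B -1.47 and 0.91.

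Glis3 was measured with 5 to 35 counts per sample. Its levels were 1.47, 1.14 and 1.28 CPM in the controls, 0.375 and 0.547 CPM in the model samples, and 0.434, 1.49 and 1.27 CPM in the electroacupuncture samples. As with Prox1, both model samples and electroacupuncture A were low and the other samples lay close together. At this depth single samples were not always resolved: the interval of model B (0.263 to 1.01 CPM) overlapped that of control B (0.545 to 2.09 CPM). Means were 1.3 ± 0.165 CPM (SD, n = 3), 0.461 ± 0.122 CPM (SD, n = 2) and 1.06 ± 0.556 CPM (SD, n = 3). The log2 fold change was -1.48 (SE 0.61) for model against control, 1.21 (SE 0.60) for electroacupuncture against model and -0.27 (SE 0.51) for electroacupuncture against control, which became 0.09 without electroacupuncture A.

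**Figure D1:**
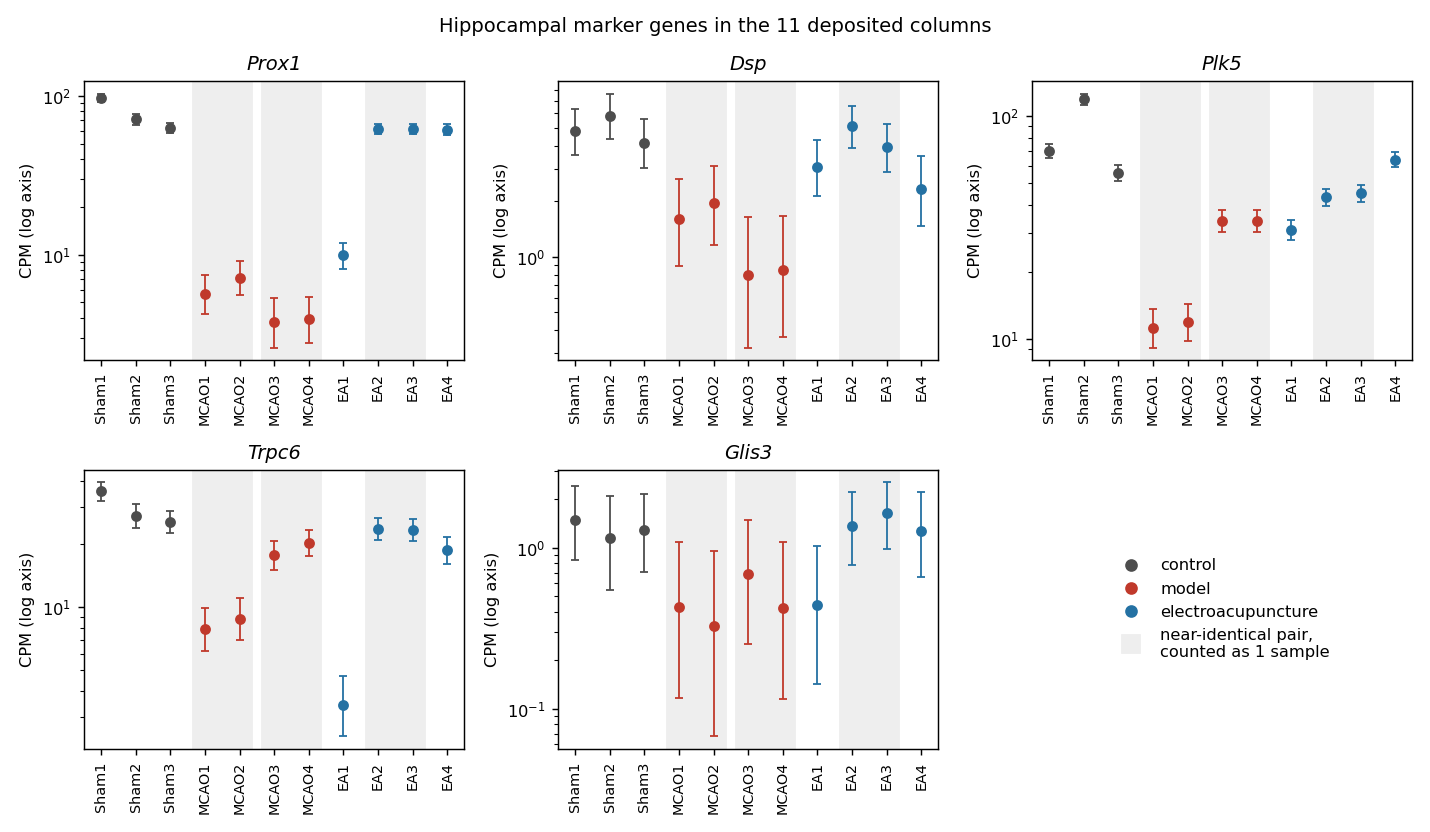
CPM of each gene (log axis) in the 11 deposited columns, with 95% exact Poisson counting intervals, coloured by group; grey bands join the near-identical columns that were counted as 1 sample. For Prox1 the MCAO columns and EA1 lie between 3.77 and 9.92 CPM and all other columns between 61.3 and 96.6 CPM, whereas for Trpc6 EA1 is the lowest column at 3.42 CPM.

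The near-identical columns repeated each other for these genes. Within such a pair, Prox1 differed by at most 1.27 times, Plk5 by 1.07, Trpc6 by 1.14, Dsp by 1.3 and Glis3 by 1.62 times, the last with 6 counts against 4. The plot of CPM by column shows that these steps are small beside the distance between the pair in model A and the pair in model B for Plk5 (11.2 and 12 CPM against 33.9 and 33.9 CPM) and Trpc6 (7.90 and 8.81 CPM against 17.7 and 20.2 CPM).

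Both model samples were below all controls for 5 of 5 genes, which holds for 19.6% of all tested genes. The genes were chosen because their levels differed between these groups. Nothing is therefore read from that count or from those that follow here. All electroacupuncture samples were above both model samples for 2 of 5 (Prox1 and Dsp), where 12.9% of tested genes did so and 11.7% lay below both. All electroacupuncture samples were below every control for 2 of 5 (Prox1 and Trpc6), against 4.88%, with 5.98% above every control. For Dsp the counting intervals of model A (1.22 to 2.48 CPM) and electroacupuncture C (1.45 to 3.51 CPM) overlapped. For Trpc6 those of electroacupuncture B (21.4 to 25.3 CPM) and control C (22.5 to 28.5 CPM) overlapped, as did those of Prox1 against control C given above. The comparisons share samples: model samples enter the first and second, electroacupuncture samples the second and the last, and controls the first and the last. Averaged over the 5 genes, the log2 level relative to the control mean was 0.13, 0.11 and -0.23 in the controls, -2.18 and -1.89 in the model samples, and -1.85, -0.27 and -0.45 in the electroacupuncture samples. Electroacupuncture A thus lay with the model samples by this average. The mean difference was -2.04 for model against control, 1.18 for electroacupuncture against model and -0.86 for electroacupuncture against control. Without electroacupuncture A the last was -0.36.

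The 5 genes did not keep a fixed ratio to each other. The ratio of Trpc6 to Prox1 CPM, which carries the lengths of both genes and is compared only between samples, was 0.367, 0.382 and 0.405 in the controls and 0.345, 0.380 and 0.304 in the electroacupuncture samples, but 1.3 in model A and 4.94 in model B. By this ratio electroacupuncture A stood with the controls, although both genes were low in it. The ratio of Plk5 to Prox1 was 0.725 to 1.67 in controls, 1.81 and 8.80 in the model samples and 3.11, 0.717 and 1.04 in the electroacupuncture samples. The ratio of Dsp to Prox1 was 0.0496 to 0.0819 in controls and 0.277, 0.214 and 0.310 for the model samples A and B and for electroacupuncture A, so that Prox1 was low out of proportion to Dsp in these 3 samples. Over the 8 samples the SD of the log2 ratio was smallest between Plk5 and Glis3 (0.62) and largest between Prox1 and Trpc6 (1.38).

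**Figure D2:**
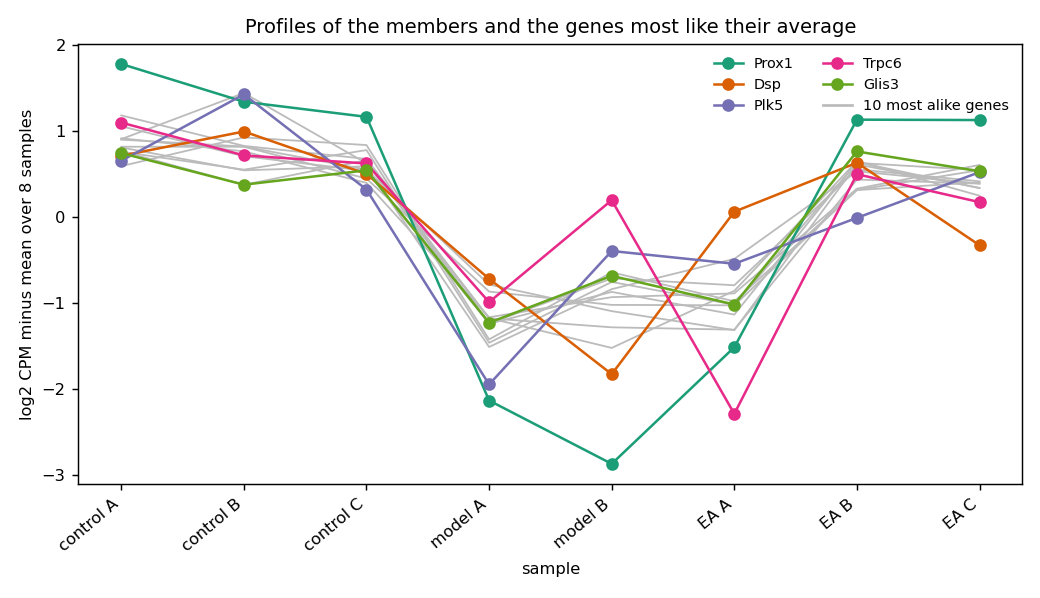
Log2 CPM of each gene minus its mean over the 8 samples (coloured lines), with the 10 genes whose profile is most like the average of the 5 in grey; the x axis lists the samples. Prox1 has the deepest low in model B, Trpc6 has its low in electroacupuncture A, and the grey lines stay within a narrow band.

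Among 14807 other genes (mean level 1 CPM or higher), likeness to the average profile of the 5 was measured as the mean absolute difference in centred log2 CPM over the 8 samples, and the median gene differed by 0.87. The closest was Scn3b, an auxiliary subunit of voltage-gated sodium channels, at 0.115. It stood at 948, 745 and 662 CPM in the controls, 193 and 249.7 CPM in the model samples, and 208, 711 and 576 CPM in the electroacupuncture samples. Epha6, an ephrin receptor, followed at 0.149, then Dpf3, a subunit of chromatin remodelling complexes, at 0.168, and Galnt18 and Sipa1l3 at 0.169 each. Gpr176, an orphan receptor, differed by 0.176, and Cacng8, an AMPA receptor auxiliary subunit abundant in hippocampus, by 0.177. Chrna2, a nicotinic receptor subunit, Esyt3 and the splicing factor Cdc40 completed the 10 at 0.181, 0.193 and 0.195. The members themselves differed from their own average by 0.279 (Glis3) to 0.757 (Prox1). These genes were picked by their values and get no test.

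A wider set of hippocampal genes, listed by their known place in the hippocampus, gave the setting for the 5. The set was drawn up with earlier results of these data known, and its genes were read in the same few samples. Its counts beside the shares of all genes are therefore a description. It held 36 genes of the table in 4 groups (dentate granule neurons, CA1, CA2 or CA3, and several fields together), of which 31 passed the filter. In model against control, 25 of 31 were lower in estimate and the median log2 fold change was -0.87, where 48.5% of all tested genes were lower and the median was 0.02. Both model samples were below every control for 21 of 31 (67.7%, against 19.6% of tested genes) and above every control for 2 (6.45%, against 18.2%). No gene of the set passed edgeR's quasi-likelihood test at an adjusted p under 0.05, which called 1 gene in all (0.00646% of tested genes). At an unadjusted p under 0.05, 11 of 31 were lower and 1 was higher, against 6.20% and 7.61% of tested genes. DESeq2 on the 8 samples called 8 of 31 lower (25.8%) and none higher, where it called 4.96% of genes, 2.25% lower and 2.71% higher. With the 11 columns as separate libraries, edgeR called 9 lower (29.0%) and none higher, against 3.75% lower and 3.63% higher, or 7.37% in all. Without electroacupuncture A, edgeR called 11 of 30 lower (36.7%, against 1.96%), and without model A it called 1 of 31 (St18), against 0.898% of genes lower.

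Dentate granule genes were lower in the model in estimate for 7 of 10, with a median log2 fold change of -0.99, and 0 of 10 passed. C1ql2, a secreted synaptic organiser of mossy fibres, measured 53.3, 32.1 and 57.3 CPM in the controls, 0.375 and 0.109 CPM in the model samples (7 and 2 counts), and 5.81, 55.5 and 32.9 CPM in the electroacupuncture samples. Model samples were nearly devoid of it and electroacupuncture A lay between them and the rest (adjusted p = 0.108, edgeR, model against control). Dock10, a guanine nucleotide exchange factor, measured 139.6 ± 12.1 CPM (SD, n = 3) in controls against 45.3 ± 15.1 CPM (SD, n = 2) after the operation alone (log2 fold change -1.62, SE 0.37, edgeR adjusted p = 0.169). Calb1, which encodes the calcium buffer calbindin and is also made outside the hippocampus, went from 103 ± 33.4 to 112 ± 63.0 CPM (edgeR adjusted p = 0.897). Pdyn, the precursor of dynorphins and a gene of striatal neurons as well, was at 21.1 and 8.27 CPM in the model samples but at 116 CPM in electroacupuncture A. Tdo2 and Lct, both known from granule neurons, were too low to be tested, at under 0.5 CPM in every sample.

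Of CA1 genes 5 of 6 were lower in the model in estimate (median -1.69, 0 of 6 passed). Fibcd1, a membrane receptor of CA1 pyramidal neurons, stood at 59.1, 58.4 and 75.3 CPM in the controls, 4.61 and 6.24 CPM in the model samples and 6.16, 67.8 and 50.8 CPM in the electroacupuncture samples, a split like that of Prox1 (edgeR adjusted p = 0.182). Pou3f1, a POU domain transcription factor, had the smallest adjusted p of the set (111 ± 19.2 against 25.9 ± 9.01 CPM, edgeR adjusted p = 0.0922). Of CA2 and CA3 genes 8 of 10 were lower in estimate with a smaller median of -0.68, and 0 of 10 passed. Homer3, a postsynaptic scaffold, measured 114 ± 7.74 and 37.1 ± 11.3 CPM in control and model, and St18, a zinc finger factor, 31.4 ± 1.79 and 9.23 ± 4.61 CPM. Cacng5, an AMPA receptor auxiliary protein of CA2, went the other way, from 5.04 ± 1.13 to 19.1 ± 11.5 CPM (edgeR adjusted p = 0.341). Genes of several fields were lower in estimate for 5 of 5 (median -1.21, 0 of 5 passed). Among them Hpca, the neuronal calcium sensor hippocalcin, read 4086, 3753 and 3328 CPM in the controls, 413 and 848 CPM in the model samples and 1607, 3451 and 3791 CPM in the electroacupuncture samples (edgeR adjusted p = 0.125).

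**Figure D3:**
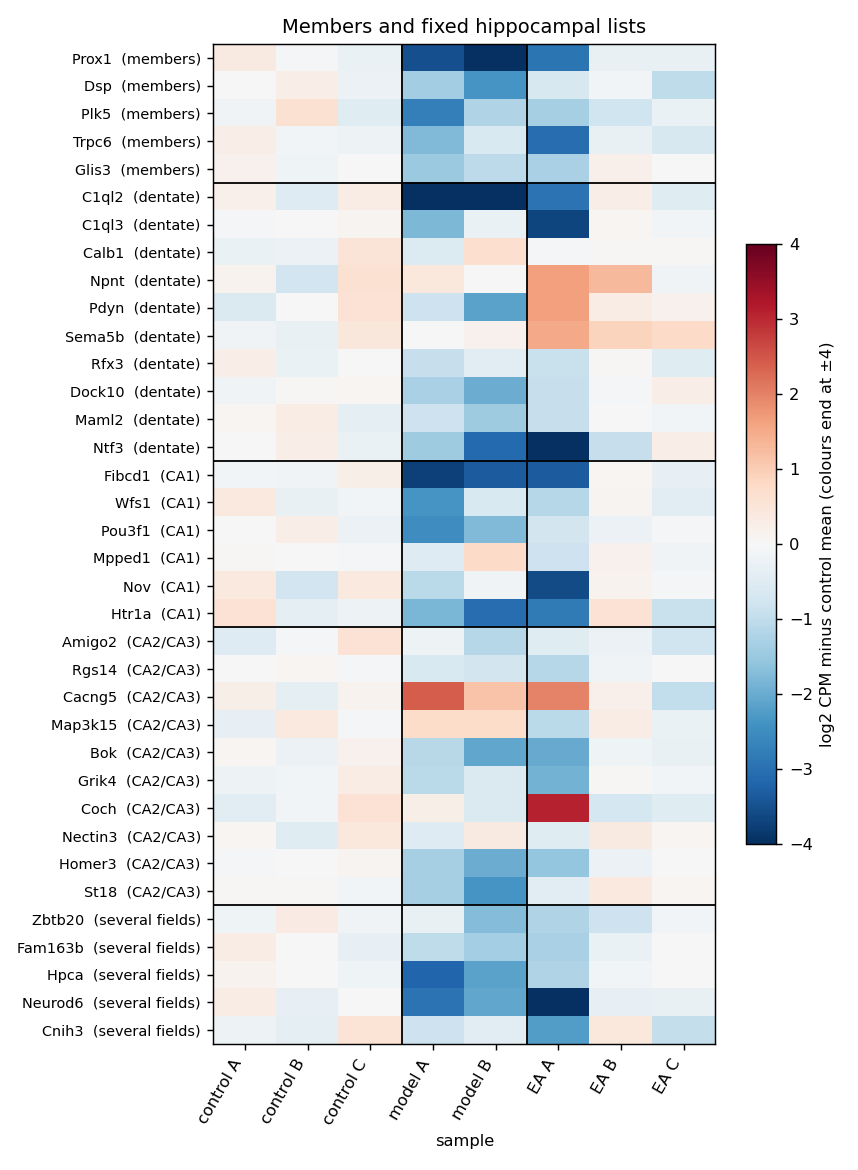
Log2 CPM minus the control mean for the 5 members and the 31 tested genes of the wider hippocampal set (rows) in the 8 samples (columns); blue is lower, red higher, and colours end at the value on the scale. The model columns and that of electroacupuncture A are mostly blue, with exceptions such as Cacng5, red in all 3, Map3k15, at 0.73 in both model samples, and Coch, Npnt, Pdyn and Sema5b, red in electroacupuncture A.

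For electroacupuncture against model, 27 of 31 genes of the wider set were higher in estimate (median 0.85, all genes 0.03), and 7 of 31 (22.6%, against 12.9% of tested genes) had no overlap, with electroacupuncture the higher group. edgeR called none of the set and 0% of all genes. At an unadjusted p under 0.05, 9 of 31 were higher and 0 lower, against 6.30% and 7.18% of tested genes. DESeq2 called 7 higher, where it called 4.48% of genes, 1.69% higher and 2.79% lower. edgeR on the 11 columns called 9 higher, against 5.48% higher and 5.40% lower, or 10.9% in all. Without electroacupuncture A, 8 of 30 were called higher (26.7%, against 1.18%), and without model A 1 was, against 0.828%. St18 went from 9.23 ± 4.61 CPM (SD, n = 2) in model samples to 32.7 ± 8.95 CPM (SD, n = 3) after electroacupuncture (edgeR adjusted p = 0.140). Against control, 25 of 31 were lower in estimate with electroacupuncture (median -0.41, all genes 0.01). None was called by edgeR (0% of genes) or DESeq2 (0.0065%), and 1 (Sema5b, higher) had an unadjusted p under 0.05, where 2.71% of tested genes were higher and 0.956% lower.

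Each of the 5 genes has relatives by sequence or by complex, and these were read beside it. Of 26 such genes with a row, 20 could be tested: 10 were lower and 10 higher in the model in estimate, the median log2 fold change was 0.03, and edgeR called none (1 lower and 1 higher at an unadjusted p under 0.05). Of all tested genes, 6.20% were lower and 7.61% higher at that unadjusted p. DESeq2 and edgeR on the 11 columns each called Ppl lower and none higher. That is 5% of the 20, against 2.25% of all genes called lower by DESeq2 and 3.75% by edgeR on the 11 columns. Among desmosome and plakin genes, Ppl (periplakin, a relative of desmoplakin) measured 31.6, 41.8 and 13.7 CPM in the controls, 2.41 and 1.64 CPM in the model samples and 5.29, 9.22 and 37.6 CPM in the electroacupuncture samples. Pkp2 (plakophilin 2, a plaque protein that binds desmoplakin) stood at 89.5 ± 13.9, 19.9 ± 1.80 and 59.3 ± 47.3 CPM in control, model and electroacupuncture (edgeR adjusted p = 0.374, model against control), with 5.81 CPM in electroacupuncture A. Perp, a desmosomal membrane protein, stood at 28.3 ± 2.64, 9.24 ± 0.178 and 17.5 ± 13.5 CPM (edgeR adjusted p = 0.416). Jup (plakoglobin), which also serves in adherens junctions, was at 47.3 ± 6.75 and 65.6 ± 10.6 CPM in control and model. The desmosomal cadherins Dsg1, Dsg2 and Dsg3 were under 1 CPM in every sample.

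The polo-like kinases Plk1 to Plk4, which act in mitosis, centriole duplication and stress, had no common direction (2 lower and 2 higher in estimate). Plk2, an activity-dependent gene of neurons, was at 134 ± 20.8 and 115 ± 40.8 CPM in control and model. Of the TRPC channels read here, Trpc4 and Trpc5 were lower in the model in estimate and lowest in electroacupuncture A, as was Trpc6. Trpc4 stood at 36.7, 36.7 and 36.4 CPM in the controls, 15.5 and 7.17 CPM in the model samples and 1.82, 32.1 and 29.9 CPM in the electroacupuncture samples. For Trpc4 model A lay above model B, the reverse of Trpc6 (8.31 and 18.9 CPM). Trpc7 had the opposite direction in estimate, at 1.65, 1.48 and 1.56 CPM in the controls, 7.02 and 2.08 CPM in the model samples and 4.25, 1.4 and 1.37 CPM in the electroacupuncture samples (edgeR adjusted p = 0.364, model against control). Trpc1 stayed between 24.8 and 30.7 CPM in all 8 samples. Of the relatives of Glis3, Glis1 and Glis2 measured 2.20 ± 0.244 and 13.3 ± 1.18 CPM among controls, against 2.93 ± 0.734 and 15.3 ± 0.725 CPM in model samples. Gli1, a target and effector of Hedgehog signalling, stood at 3.15 ± 0.139 and 11.5 ± 2.77 CPM (edgeR adjusted p = 0.285). Gli2, another Hedgehog effector, was lower in estimate, at 6.78, 5.91 and 3.85 CPM in the controls against 2.41 and 3.28 CPM in the model samples (edgeR adjusted p = 0.367). It read 10.1, 5.14 and 5.80 CPM in the electroacupuncture samples. There edgeR on the 11 columns called Gli2 and Ppl higher than in the model, against 5.48% of all genes. Gli3 measured 3.03 ± 0.718 and 3.82 ± 0.0962 CPM in control and model. Prox2, the nearest relative of Prox1, was under 1 CPM throughout and was not tested.

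**Figure D4:**
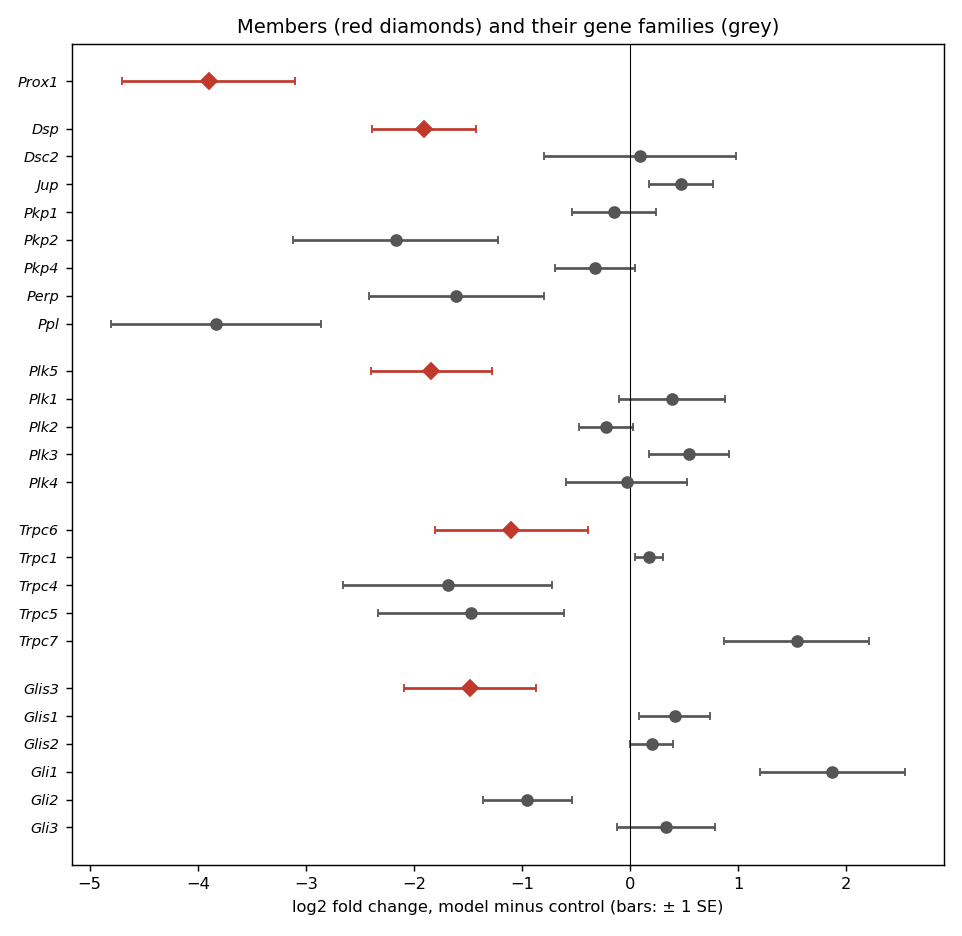
Log2 fold change of model against control (x axis, bars are ± 1 SE from the edgeR fit) for the 5 genes as red diamonds and the tested members of their families as grey circles. The 5 lie between -3.90 and -1.10, and relatives lie on both sides of 0, from Ppl at -3.83 to Gli1 at 1.87.

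Markers of other brain regions and cell types also differed in level between the samples. The neocortical list (9 of 9 tested, 7 higher in the model in estimate, none called by edgeR, Cux2 and Rorb called higher by DESeq2) summed to 191 to 197 CPM among controls, 265 and 774 CPM in the model samples and 202 to 281 CPM with electroacupuncture. The list for striatal medium spiny neurons (10 of 10 tested, 8 higher in the model, none called) summed to 352 to 558 CPM among controls, 965 and 465 CPM in the model samples, and 6302, 482 and 379.5 CPM in the electroacupuncture samples, with no marker at 0. Ppp1r1b, the dopamine signalling protein DARPP-32, reached 2066 CPM in electroacupuncture A, and the other samples held 94.2 to 218 CPM. Thalamic markers (7 of 7 tested, 7 higher in the model, none called by edgeR, Prkcd called higher by DESeq2) summed to 53.1 to 77.3 CPM among controls, 114 and 105 CPM in the model samples and 50.9 to 78.2 CPM with electroacupuncture. Choroid plexus markers (the secretory tissue inside the ventricles) summed to 1369 CPM in control C, 94.9 CPM in control A and 7.73 to 54.3 CPM elsewhere. In model against control, DESeq2 called 2.71% of all genes higher. The part of any of these lists in the levels of the 5 genes was not tested.

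**Figure D5:**
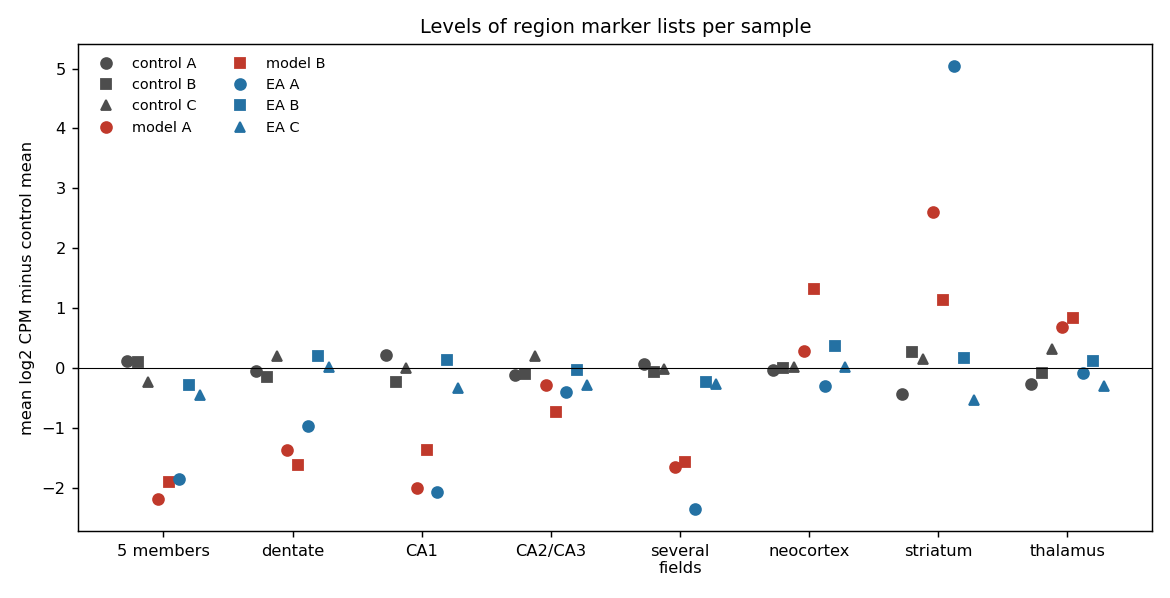
Mean log2 CPM minus the control mean of each marker list (x axis) in each of the 8 samples, coloured by group. The dentate, CA1 and several-field lists are lowest in both model samples and electroacupuncture A, and the CA2 and CA3 list is at -0.28 both in model A and in electroacupuncture C, while the striatal list is at 5.04 in electroacupuncture A and the neocortical list at 1.32 in model B.

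Some oligodendrocyte lineage cells and interneurons also make Prox1, and their part in its level was not tested. Oligodendrocyte precursor markers (6 of 6 tested) summed to 281 to 442 CPM among controls, 338 and 312 CPM in the model samples, and 441 to 489.7 CPM with electroacupuncture. In electroacupuncture against model, 6 of 6 were higher in estimate and 3 of 6 had no overlap, against 12.9% of tested genes. edgeR called none, and DESeq2 called Gpr17 and Olig2 higher, against 1.69% of genes. edgeR on the 11 columns called Gpr17, Olig1 and Olig2 higher, against 5.48%. In electroacupuncture against control, 6 of 6 were higher in estimate and 4 of 6 had no overlap, against 5.98% of tested genes. At an unadjusted p under 0.05 in edgeR, 4 were higher there, against 2.71%, and none was called. Interneuron markers (8 of 8 tested, none called by edgeR) summed to 422 to 511 CPM, 795 and 740.3 CPM, and 508 to 697 CPM in control, model and electroacupuncture. DESeq2 called Sst and Lhx6 higher in the model than in control, where it called 2.71% of genes higher. Gad2 was listed at 0 in control B, model A, model B and electroacupuncture B. Meningeal, mural and endothelial markers, where desmosome or TRPC genes can also be active, overlapped between the model and control groups, at 64.0 to 238, 55.6 to 71.0 and 99.9 to 183 CPM in the model and 119 to 227, 45.8 to 64.0 and 97.8 to 204 CPM in controls. Of the meningeal markers, Col1a2 was listed at 0 in control A, control C and electroacupuncture C, and Aldh1a2 in model B.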

How the data were processed

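Poly(A) RNA from rat brain tissue was sequenced as paired-end libraries whose adapters carried molecular identifiers, per the labels' protocols. The authors deposited 1 table of expected counts (estimated read counts per gene, partly fractional; all 55 values of the 5 genes were whole), with no normalization. The aligner HISAT2 2.0.5 is listed in the submitters' processing notes, as are DESeq2 1.16.1, featureCounts 1.5.0-p3 and StringTie 1.3.3b. No source here names the genome build behind the counts, so the only coordinates printed are those of the RefSeq promoter sequences, in GRCr8. Column names gave the group but not the sample. The 4 symbols on 2 rows were summed, values were rounded, and columns of a group that differed by under 2 times the sampling variance (median, genes of summed count 20 or more) were summed.

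All 8 samples entered 1 edgeR 4.0.16 fit in R 4.3.3 (TMM, default filter, two-sided quasi-likelihood F test, Benjamini-Hochberg over all 15487 genes, called at adjusted p under 0.05), with 5 residual degrees of freedom; scripts were tested on simulated data. Standard errors come from the F statistic. DESeq2 1.42.0 was an alternative. Log2 levels use a prior count of 2. Named genes were the 5 members, genes of the hippocampal, newborn neuron and family lists, the 3 markers of highest mean CPM in each other list, and the 10 genes most alike. Other markers named (Cux2, Rorb, Prkcd, Sst, Lhx6, Gpr17, Olig1, Olig2, Gad2, Col1a2, Aldh1a2, Gabra6, Cbln1), and which listed genes are quoted, were chosen after their values were seen. The members and lists were chosen with earlier results of these data known. Further marker lists are given in the last part. A gene of the family lists is not reported here and was left out of their counts.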

Additional observations from a re-analysis of the deposited data

How the results depend on the processing

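The mean log2 difference of the 5 genes kept its direction under each alternative run. Leaving out each sample in turn it ranged from -2.18 to -1.89 for model against control, 0.87 to 1.68 for electroacupuncture against model and -1.15 to -0.36 for electroacupuncture against control. Where this leaves 1 model sample, that sample is assumed to vary like the other groups. The number of genes called by edgeR was less steady. For model against control it was 1, but 0 with total counts, 763 with DESeq2, 1129 with all 11 columns and 0 to 565 leaving out a sample (565 without electroacupuncture A, 356 without model A). For electroacupuncture against model it was 0, but 689 with DESeq2, 1666 with 11 columns and 0 to 308 leaving out a sample (308 without model A, 278 without electroacupuncture A). For electroacupuncture against control it was 0, but 1 with DESeq2. Calls in the wider hippocampal set were 0, but 8 with DESeq2, 9 with 11 columns and 0 to 11 leaving out a sample for model against control, and 7, 9 and 0 to 8 for electroacupuncture against model. The cause was not tested. Of the 5 genes, Dsp and Glis3 could not be fitted under the stricter filter (5 CPM in 2 samples). Taking only 1 column of each near-identical pair, chosen after seeing the data, gave mean differences of -2.02, 1.18 and -0.84. No paired analysis was possible because column names could not be matched to the labels' replicate numbers.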

Other observations

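Genes of newborn neurons, which the dentate gyrus shares with the wall of the lateral ventricle, did not move together. Of 7 tested genes 2 were lower and 5 higher in the model in estimate, and edgeR called none. Neurod1, a helix-loop-helix factor of maturing granule neurons that mature ones also keep, stood at 37.7, 30.9 and 33.0 CPM in the controls, 5.68 and 8.59 CPM in the model samples, and 0.781, 27.3 and 29.6 CPM in the electroacupuncture samples. Dcx (doublecortin), a microtubule protein of migrating young neurons, was instead at 18.8 to 20.9 CPM among controls, 74.1 and 24.7 CPM in the model samples and 66.7, 23.5 and 19.5 CPM in the electroacupuncture samples. Igfbpl1, a gene of young neurons, was at 36.9 CPM in model A and 24.8 CPM in electroacupuncture A but at 0.383 CPM in model B and at 2.39 to 5.32 CPM in the 5 other samples.

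Ependymal markers, which line the ventricles, summed to 38.6 to 46.8 CPM among controls, 79.6 and 20.2 CPM in the model samples, and 209.9, 54.9 and 39.3 CPM in the electroacupuncture samples. Cerebellar markers summed to 124 to 165 CPM among controls, to 106 and 204 CPM in the model samples, and to 27.7 CPM in electroacupuncture A against 119.8 and 169 CPM in B and C. Most of the control sum was Pvalb, also an interneuron marker, at 104 to 149 CPM in controls and 9.89 CPM in electroacupuncture A. In that sample Zic1 (9.02 CPM) and Car8 (7.63 CPM) were not below the controls (8.25 to 11.1 and 3.3 to 5.12 CPM). Cbln1 (1.04 CPM) was below every control there (1.93 to 11.3 CPM). Gabra6 was near the floor, at 0.0868 CPM there and 0.114 CPM in control B, so their order was not resolved. Endothelial and mural markers were highest in electroacupuncture A, at 299 and 134 CPM. The meningeal list summed to 102 to 127 CPM with electroacupuncture.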
